A study of Rattus norvegicus with 6 samples.

Results

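Fgf2 and Gdnf, 2 secreted growth factors, were followed across 6 arrays of rat BMSCs (mesenchymal stem cells of the bone marrow, the adherent stromal cells that can be grown out of it). They were 2 of the 30 features whose transcript accession matched a gene symbol, among 38804 non-control features on the array. Both were selected on their measured hypoxia and normoxia levels on these same arrays, so the difference between the conditions is given for them as a description, with no test. BMSCs of Sprague-Dawley rats were kept for 48 h under normoxia (20% oxygen) or under hypoxia (0% oxygen), with 3 samples in each group. All 6 samples were cells in culture that carried no introduced gene. The study asked which transcripts change in BMSCs when oxygen is withdrawn, as in the necrotic femoral head into which such cells are transplanted. The sources used here call the samples biological replicates without saying whether they came from separate animals, and the spread between them may be partly technical.

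Fgf2 (basic fibroblast growth factor) is a heparin-binding ligand that is held in the matrix around cells and signals through the FGF receptor tyrosine kinases, from which the MAPK and PI3K relays carry the signal inward. It is a well-known mitogen of cultured BMSCs. Gdnf (glial cell line-derived neurotrophic factor) is a distant member of the TGF-beta superfamily. It binds the anchored co-receptor GFRA1, and the complex activates the receptor tyrosine kinase RET. It is best known as a survival factor for neurons and for its part in kidney and testis development. When oxygen is low, cells stabilise the transcription factor HIF, which binds a short DNA core, the hypoxia response element, beside many of its target genes.

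Both genes lie on the plus strand of rat chromosome 2 in RefSeq's GRCr8 annotation, Fgf2 with 1 transcript over 54343 bases and Gdnf with 4 transcripts over 25916 bases. The 250 bases before each annotated start, from RefSeq, are shown because they carry the hypoxia response element core near the start of both genes. Capitals mark that core (ACGTG or GCGTG, searched on both strands, so that CACGT and CACGC are its minus-strand forms).
Fgf2 at chr2:122164204-122164453: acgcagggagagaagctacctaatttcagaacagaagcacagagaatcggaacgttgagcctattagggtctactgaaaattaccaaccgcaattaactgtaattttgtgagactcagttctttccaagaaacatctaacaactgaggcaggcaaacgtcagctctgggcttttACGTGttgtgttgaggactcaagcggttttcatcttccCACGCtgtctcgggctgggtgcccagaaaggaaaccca
Gdnf at chr2:58621077-58621326: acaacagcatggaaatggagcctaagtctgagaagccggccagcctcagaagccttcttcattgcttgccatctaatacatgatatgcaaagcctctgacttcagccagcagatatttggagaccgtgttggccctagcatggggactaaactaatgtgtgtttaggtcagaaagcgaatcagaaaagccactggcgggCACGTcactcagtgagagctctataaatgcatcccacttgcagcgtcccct
In Fgf2 the core ACGTG stood 76 to 72 bases before the start on the plus strand, and GCGTG stood 38 to 34 bases before it on the minus strand. In Gdnf the core ACGTG stood 51 to 47 bases before the start on the minus strand, and a TATA box (TATAAA, either strand) stood 30 to 25 bases before the start. The hypoxia response element core was present in 37.9% of 27457 rat windows of the same length and the TATA box in 13.1%. A GC box (GGGCGG) and a CCAAT box, searched on both strands, were in neither window, against 32.4% and 34.3% of all windows. The GC content was 46.8% for Fgf2 and 49.6% for Gdnf, and the median window had 52.0%. These are letter matches in the reference sequence and were not measured in the cells.

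Each array carried 41800 non-control spots read in 1 colour (Cy3), and 74.4% to 85.8% of its features were detected. No spot was saturated. The arrays were read in 2 scans, 1 with all 3 normoxia arrays and hypoxia 1, the other with hypoxia 2 and hypoxia 3 only. The median local background was 14 to 16 units in the scan with 4 arrays, against 22.5 and 22 in the scan with 2 arrays. Within the hypoxia group the scan and any real difference between samples cannot be told apart. Most features carried no gene name. Of lists that cover FGF receptors and partners (17 genes), FGF relays and targets (22 genes), GDNF receptors (7 genes) and other growth factors (48 genes), 0 had a named feature, so neither pathway could be followed beyond its ligand. The same held for 11 BMSC markers, 10 haematopoietic markers and 5 endothelial markers, so the label of the cells was not checked here.

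Fgf2 was lower on every hypoxia array than on every normoxia array. Its median background-corrected intensity over 10 spots was 130 units on normoxia 1, 118 on normoxia 2 and 84.5 on normoxia 3, against 33.6 on hypoxia 1, 39.4 on hypoxia 2 and 35.3 on hypoxia 3. The groups did not overlap, and the hypoxia arrays lay closer to each other than the normoxia arrays did. The 30 hypoxia spots ran from 31.1 to 54.3 units and the 30 normoxia spots from 80.0 to 137 units, so the brightest hypoxia spot was below the dimmest normoxia spot. Spots are repeats within an array. The array order alone held, without normalization, for 11.0% of the features detected on at least 3 arrays. All 60 spots were detected. The corrected signal was 8.34, 8.06 and 6.19 times the local background on normoxia 1 to 3, and 2.41, 1.69 and 1.54 times on hypoxia 1 to 3. Without any scaling between arrays the normoxia arrays averaged a log2 intensity of 6.77 ± 0.31 (SD, n = 3) and the hypoxia arrays 5.17 ± 0.11 (SD, n = 3), a 3.04-fold lower level. That gap was larger than the spread within either group.

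Quantile normalization, which gives every array the same distribution of values and is the scale on which the study worked, changed the shape of this pattern. The normalized log2 level of Fgf2 was 6.79, 6.91 and 6.85 on normoxia 1 to 3, and 5.53, 4.61 and 4.69 on hypoxia 1 to 3. The normoxia arrays drew together and hypoxia 1 drew away from the other hypoxia arrays. The group means were 6.85 ± 0.06 (SD, n = 3) and 4.94 ± 0.51 (SD, n = 3), a difference of -1.91 log2 units or a 3.75-fold lower level under hypoxia. On its own array the Fgf2 feature stood at percentile 65.8 to 66.8 of all features under normoxia, and at percentile 53.4 on hypoxia 1, 43.2 on hypoxia 2 and 44.1 on hypoxia 3. Fgf2 thus moved from the upper part of the range of signals to its middle.

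**Figure D1:**
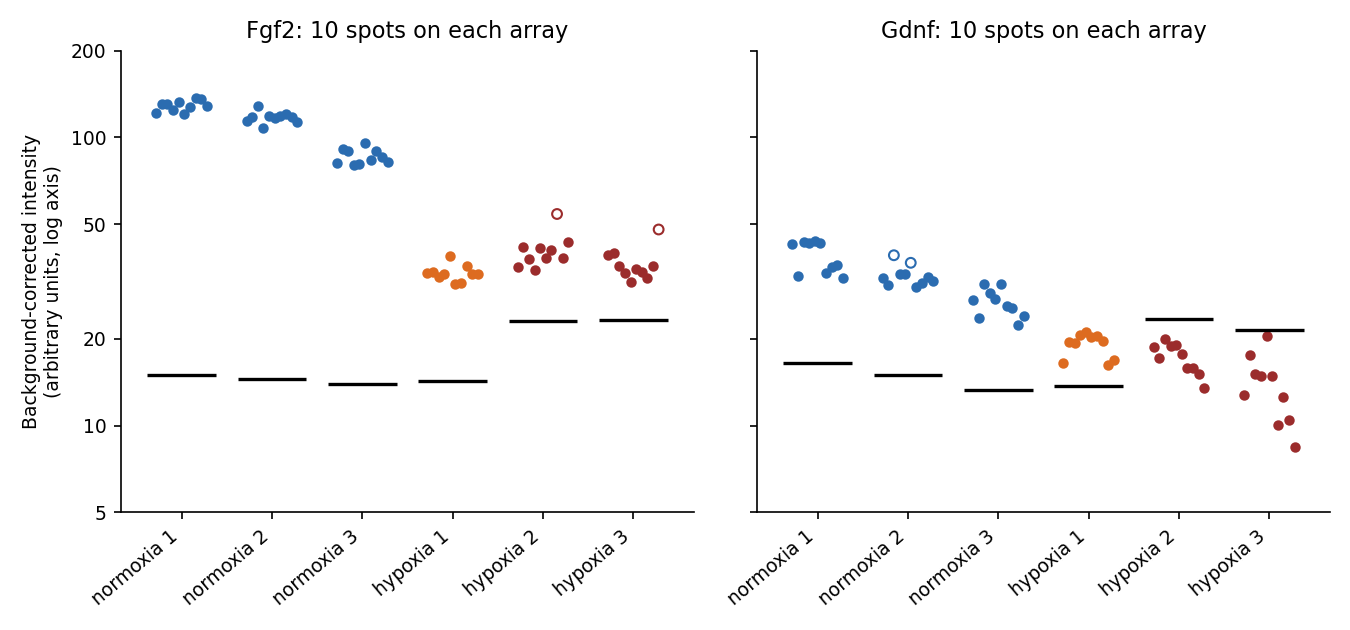
Background-corrected intensity (arbitrary units, log axis) of each of the 10 spots of Fgf2 and Gdnf on each array, with outlier spots as open circles and the median local background of the same spots as a black line. Both genes have every hypoxia spot below every normoxia spot, and on hypoxia 2 and 3 the Gdnf spots lie below the background line.

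Gdnf was also lower on every hypoxia array, at a signal much nearer to its background. Its median intensity was 39.4 units on normoxia 1, 32.6 on normoxia 2 and 26.6 on normoxia 3, against 19.6 on hypoxia 1, 17.5 on hypoxia 2 and 13.8 on hypoxia 3. The groups did not overlap, although normoxia 3 and hypoxia 1 were close. The 30 hypoxia spots ran from 8.40 to 21.2 units and the 30 normoxia spots from 22.4 to 43.7 units. The scanner software counted all 60 spots as detected. The corrected signal was 2.30, 2.29 and 2.05 times the local background on normoxia 1 to 3, 1.42 times on hypoxia 1, and only 0.737 and 0.592 times on hypoxia 2 and 3. On those last arrays the subtracted background was thus larger than the signal left after it. Without scaling the normoxia arrays averaged 5.00 ± 0.27 log2 units (SD, n = 3) and the hypoxia arrays 4.02 ± 0.26 (SD, n = 3), a 1.97-fold lower level.

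After quantile normalization the log2 level of Gdnf was 5.16, 5.14 and 5.24 on normoxia 1 to 3, and 4.73, 3.28 and 3.03 on hypoxia 1 to 3. Hypoxia 1 lay near the normoxia arrays, and hypoxia 2 and 3 lay far below all the others. The means were 5.18 ± 0.06 (SD, n = 3) and 3.68 ± 0.92 (SD, n = 3), a difference of -1.50 on the log2 scale or 2.83-fold lower under hypoxia. Its place among the features of an array was percentile 49.1 to 50.3 under normoxia, 44.6 on hypoxia 1, and 28.7 and 26.2 on hypoxia 2 and 3. The bulk of the normalized Gdnf difference therefore came from the arrays of the other scan.

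Among the 30451 features detected on at least 3 arrays, limma called 2.71% lower and 0.923% higher under hypoxia at an adjusted p under 0.05 and over 2-fold. The balance of directions depended on the processing, since 25.4% of the calls were higher in this fit, 57.5% after 75th-percentile scaling, 46.3% with the scan as a block and 48.7% without hypoxia 1. Every hypoxia array lay below every normoxia array for 22.2% of these features on the normalized scale and for 11.0% without normalization, so the order of the arrays alone did not set Fgf2 and Gdnf apart. The size of the normalized difference placed them further out. A mean as low as that of Fgf2 or lower was found for 259 features (0.851%), and one as low as that of Gdnf for 565 (1.86%). With hypoxia 1 alone against the normoxia arrays of its own scan, these shares were 1.40% for Fgf2 and 10.6% for Gdnf. Since both genes were chosen on this contrast, these shares only describe where they stand.

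The choice of scale moved the hypoxia arrays against each other. Quantile normalization raised Fgf2 by 0.45 log2 units on hypoxia 1, and it dropped by 0.67 and 0.45 on hypoxia 2 and 3. For Gdnf the shift was 0.49 on hypoxia 1, and -0.82 and -0.71 on hypoxia 2 and 3. The range of the 3 hypoxia arrays widened in this way from 0.20 to 0.92 log2 units for Fgf2 and from 0.51 to 1.71 for Gdnf. Scaling each array to its 75th percentile gave hypoxia levels of 5.45, 4.95 and 5.08 for Fgf2 and of 4.61, 3.75 and 3.68 for Gdnf. On that scale the differences between the conditions were -1.62 log2 units for Fgf2 and -0.99 for Gdnf, close to the values without normalization (-1.60 and -0.98). The median of all features tested differed between the conditions by 0.00 log2 units after quantile normalization, by 0.16 after 75th-percentile scaling and by 0.18 without scaling. Both genes were lower under hypoxia on each of these scales. With limma's normexp background correction on the spots' median signals (offset 50), followed by quantile normalization, the differences were smaller, at -0.97 for Fgf2 and -0.39 for Gdnf.

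**Figure D2:**
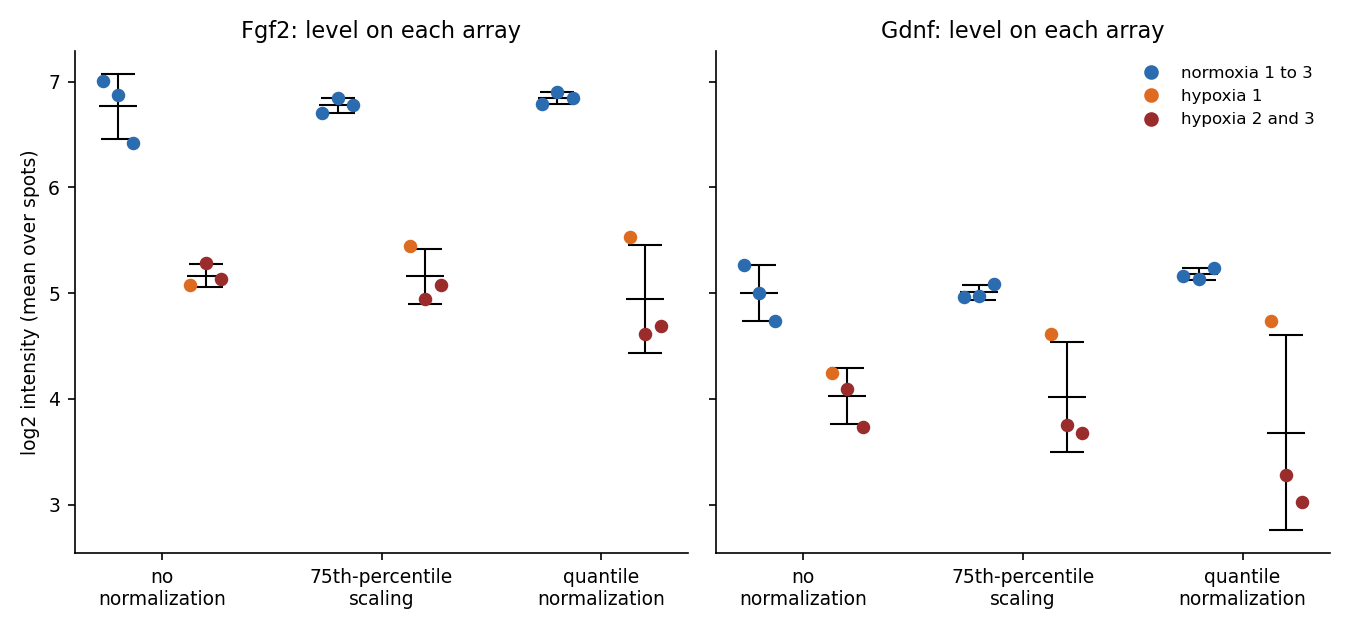
Log2 intensity of Fgf2 and Gdnf on each array without normalization, after 75th-percentile scaling and after quantile normalization, with group mean and SD (n = 3) as black marks. Hypoxia 1 sits with hypoxia 2 and 3 without normalization, and above them after quantile normalization, where hypoxia 2 and 3 averaged -0.88 log2 units from it for Fgf2 and -1.58 for Gdnf.

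Set apart by scan, the normalized level of Fgf2 on hypoxia 1 was 2.49-fold below the normoxia mean, and the mean of hypoxia 2 and 3 was 4.59-fold below it. The corresponding values for Gdnf were 1.36-fold and 4.08-fold. Without normalization Fgf2 was 3.23-fold lower on hypoxia 1 and 2.95-fold lower on hypoxia 2 and 3, and Gdnf was 1.68-fold and 2.12-fold lower. After 75th-percentile scaling Fgf2 was 2.52-fold lower on hypoxia 1 and 3.40-fold lower on hypoxia 2 and 3, and Gdnf was 1.31-fold and 2.45-fold lower. Hypoxia 1 thus gave the smaller Fgf2 difference on both scaled sets of values and the larger one without scaling, and the smaller Gdnf difference on all 3. Unscaled values also carry the overall brightness of an array, and the median difference from normoxia over features with 1 spot was -0.32 on hypoxia 1 and 0.39 on hypoxia 2 and 3. A single hypoxia array shared a scan with normoxia arrays, so no spread can be attached to the within-scan hypoxia value.

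Fgf2 and Gdnf belonged to 50 features that the array carried in 10 spots each, and 43 of these were detected on all 6 arrays. The other 41 were compared with the members after their values had been seen. After quantile normalization 34 of these 41 (82.9%) had a lower mean under hypoxia, with a median difference of -0.36 log2 units, against 50.2% and 0.00 for 30327 features with 1 spot. On hypoxia 1 their median difference from normoxia was -0.01, and 37 of 41 were lower on hypoxia 2 and 3 than on hypoxia 1, against 57.9% of features with 1 spot. Without normalization 22 of the 41 were lower on hypoxia 2 and 3 than on hypoxia 1, against 12.0% of features with 1 spot. The class thus lay lower on the arrays of the other scan after quantile normalization, as Fgf2 and Gdnf did, and its part in their result was not tested. Without normalization the class had a median difference between hypoxia 2 and 3 and hypoxia 1 of -0.03 log2 units, Fgf2 one of 0.13 and Gdnf one of -0.33. Relative to the median of the class, Fgf2 differed between the conditions by -1.55 log2 units and Gdnf by -1.15 after quantile normalization, and by -1.29 and -0.66 both without normalization and after 75th-percentile scaling. On hypoxia 1 alone, after quantile normalization, these values were -1.31 and -0.44. Scaling to the 75th percentile shifts all features of an array alike, so comparisons between features are the same with it as without scaling. Of the 41 features, 0 had a difference as low as that of Fgf2 on any of the 3 scales. For Gdnf the count was 0 after quantile normalization, 5 after 75th-percentile scaling or without scaling, and 9 on hypoxia 1 alone after quantile normalization.

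**Figure D3:**
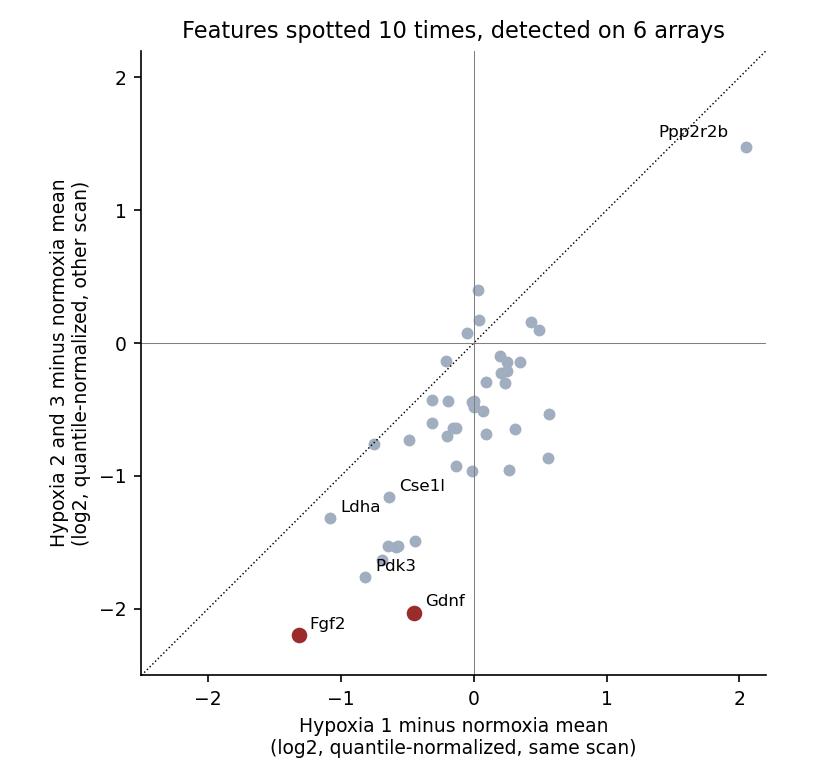
Quantile-normalized log2 difference from the normoxia mean on hypoxia 1 (same scan as normoxia, horizontal axis) and on hypoxia 2 and 3 (other scan, vertical axis) for the 43 features spotted 10 times and detected on 6 arrays, with a dotted line of equality. Fgf2 is lowest on both axes, whereas Gdnf is low on the vertical axis at -2.03 and within the other features on the horizontal axis at -0.45.

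The 10 spots of each gene show how far a single array can be read. With outlier spots left out, the log2 values of the Fgf2 spots had an SD of 0.06, 0.07 and 0.09 on normoxia 1 to 3 and of 0.09, 0.11 and 0.11 on hypoxia 1 to 3. Those of Gdnf had an SD of 0.18, 0.06 and 0.16 on normoxia 1 to 3, and of 0.14, 0.18 and 0.39 on hypoxia 1 to 3. With outlier spots kept, the SD was 0.18 for Fgf2 on both hypoxia 2 and hypoxia 3, and 0.11 for Gdnf on normoxia 2. Gdnf spots on hypoxia 3 scattered most, from 8.40 to 20.5 units. Pooled over arrays without the outlier spots, the spot SD of Gdnf was 0.21, the second highest of the 43 features, and that of Fgf2 was 0.09, at rank 30. Gdnf was the fifth dimmest of these features and Fgf2 was at place 11 from the dim end. Spots of 1 array share its RNA and its scan, so their spread measures the array surface and the reading and not the cells. The scanner software marked few spots as outliers, 1 for Fgf2 on each of hypoxia 2 and hypoxia 3 and 2 for Gdnf on normoxia 2.

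**Figure D4:**
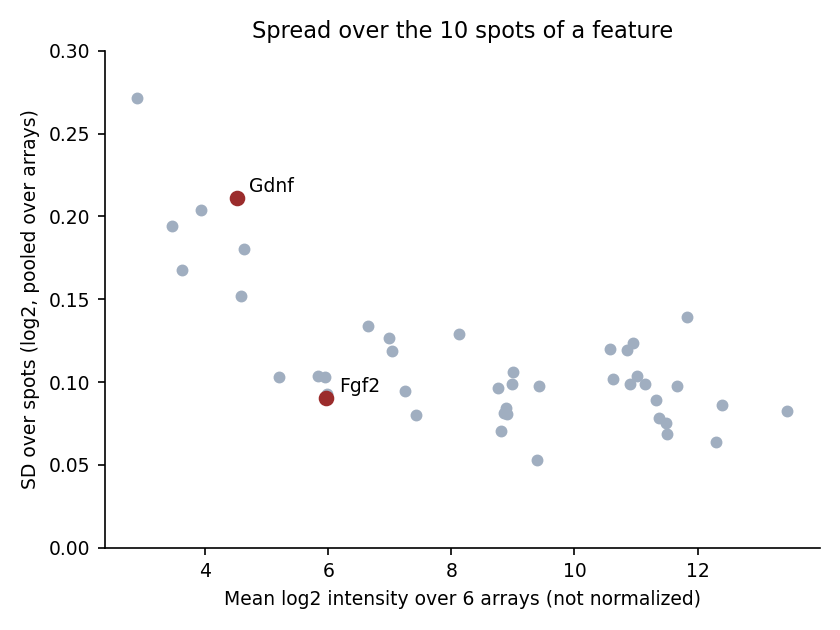
SD of the log2 intensity over the spots of a feature, outlier spots left out, pooled over the 6 arrays, against its mean unnormalized log2 intensity, for the 43 features spotted 10 times and detected on 6 arrays. Gdnf, at 0.21, lies among the dim features with a wide scatter, and Fgf2 lies at 0.09.

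The 10 Fgf2 spots lay between rows 90 and 321 of 532, and the 10 Gdnf spots between rows 14 and 474. The pattern over the 10 positions recurred between arrays for Gdnf, with a median Pearson r of 0.59 over 15 pairs of arrays, and hardly for Fgf2, with a median r of 0.04. The log2 signal of Gdnf ran against the row on all 6 arrays, with r of -0.52, -0.21 and -0.35 on normoxia 1 to 3 and of -0.13, -0.81 and -0.69 on hypoxia 1 to 3. For Fgf2 r lay between -0.10 and 0.48. These correlations describe 10 spots of 1 array each, outlier spots included, chosen for display after their values were seen. At each of the 10 positions every hypoxia array gave a lower spot than all 3 normoxia arrays, for both genes. The spots of an array share its RNA, so this adds no replicates to the order of the arrays. That order held for 11.0% of the features detected on at least 3 arrays, without normalization. How many other features showed it at every position was not counted.

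**Figure D5:**
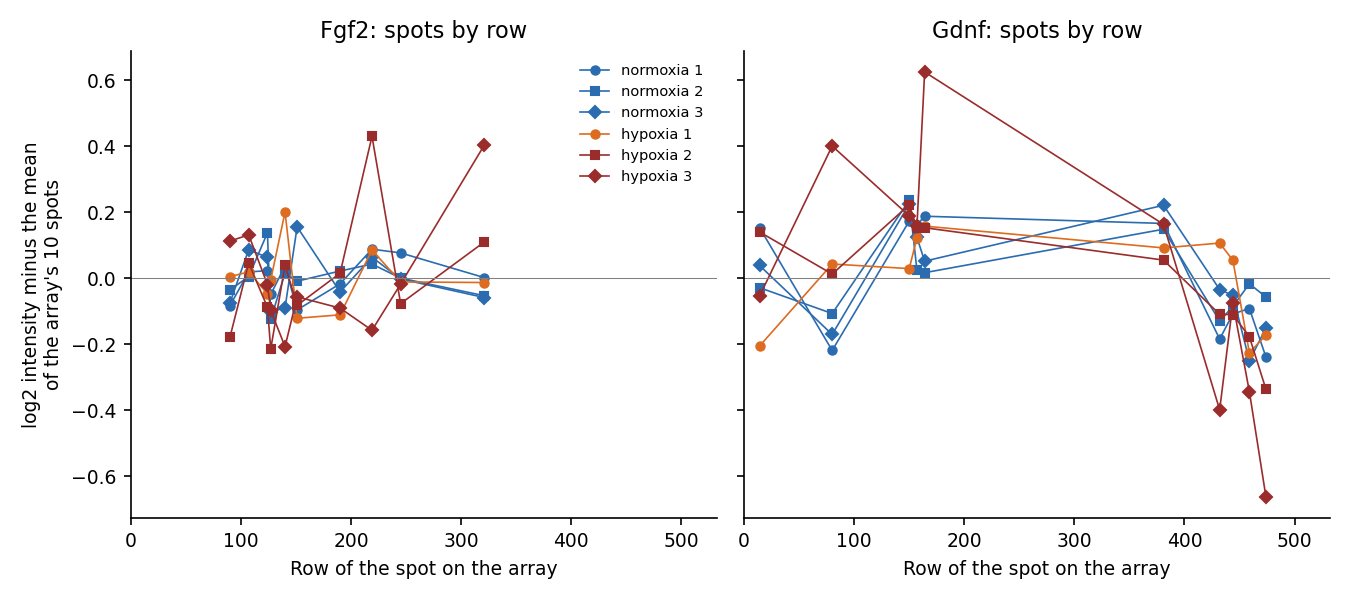
Log2 intensity of each of the 10 spots of Fgf2 and Gdnf, minus the mean of the same array's spots, against the row of the spot, with a line for each array. The Fgf2 lines show no common course, and the Gdnf lines of hypoxia 2 and 3 run downwards towards the high rows (r of -0.81 and -0.69).

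Fgf2 and Gdnf followed each other closely over the 6 arrays, with a Pearson r of 0.945 on the normalized scale. The 6 points include the split between conditions and scans, which both genes share. Gdnf held place 13 by r with Fgf2 among 26 named features. The named features most like Fgf2 were Cse1l (r = 0.994), an export receptor that returns importin alpha to the cytoplasm, Pdk3 (r = 0.993), a kinase that inhibits pyruvate dehydrogenase, and Slc28a2 (r = 0.988), a sodium-coupled nucleoside transporter. Those most like Gdnf were Mex3c (r = 0.990), an RNA-binding ubiquitin ligase, Nlrp3 (r = 0.986), an inflammasome sensor, and Dlg4 (r = 0.983), the scaffold PSD-95 of synapses. Least like both were Ppp2r2b, a regulatory subunit of protein phosphatase PP2A, Cdh2 (N-cadherin) and Nat1, an N-acetyltransferase. For Ppp2r2b r was -0.86 with Fgf2 and -0.66 with Gdnf. An r of at least 0.9 was common, since it was reached by 18.6% of 27765 features detected on 6 arrays for Fgf2 and by 23.4% for Gdnf.

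The other 25 named features detected on 6 arrays all belonged to the 41 features spotted 10 times, so they are no separate comparison. Of the 25, 22 had a lower mean under hypoxia after quantile normalization, against 50.2% of features with 1 spot. All 25 were lower on hypoxia 2 and 3 than on hypoxia 1 on that scale, against 57.9% of features with 1 spot. On the same scale 0 fell as far as Fgf2 or Gdnf. On the 75th-percentile scale Ldha (-1.48), Pdk3 (-1.24), Cse1l (-1.21), Med16 (-1.11) and Slc28a2 (-1.10) fell further than Gdnf (-0.99) but less than Fgf2 (-1.62). By limma's moderated test with the replicate number as a block, 1 of the 25 passed lower and 1 passed higher, against 2.71% and 0.923% of all features. Ldha, the lactate dehydrogenase subunit that ends glycolysis and the only one of 36 listed HIF targets with a named feature, was lower by a log2 difference of -1.24 (SE 0.17, adjusted p = 0.0287), with -1.08 on hypoxia 1 and -1.32 on hypoxia 2 and 3. Ppp2r2b was higher by 1.67 (SE 0.18, adjusted p = 0.0176), with 2.05 on hypoxia 1 and 1.47 on hypoxia 2 and 3. Without the block 6 of the 25 passed lower and 1 higher, against 3.78% and 1.27% of all 30451 features. Map2, a microtubule-associated protein of neurons and the only one of 6 neuronal and glial markers with a named feature, differed by -0.29 with an adjusted p of 0.296 in limma, and by 0.39 on the 75th-percentile scale. Pdk3, the lowest of the 25, had a difference of -1.45 that did not pass with the block (limma adjusted p = 0.0508) and passed without it (limma adjusted p = 0.0242).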

How the data were processed

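Total RNA of the 6 BMSC samples was labelled with Cy3 and hybridised to single-colour Agilent arrays. The authors read the images with Agilent Feature Extraction 11.0.1.1 and deposited, for each spot, background-corrected and spatially detrended intensities on a linear scale with the software's flags, and a table of quantile-normalized log2 values. Per the file headers, the flags are other values (0 or 1) for detection and outliers.

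After removal of control and outlier spots, the log2 intensities of each feature's spots were averaged, and 38733 features with a value on all 6 arrays were quantile-normalized, as in the study's methods. Outlier spots were thereby dropped for both members. A feature was tested if at least 0.5 of its spots were detected on at least 3 arrays. The fit used limma 3.58.1 in R 4.3.3 with the number of the replicate as a blocking term and Benjamini-Hochberg adjustment over 30451 features, since the methods name a paired test. The fit was also run on simulated data with independent noise and no scan split, so that run does not test how the scans affect it. A feature was called at an adjusted p under 0.05 and over 2-fold. The fold change is a difference of log2 values. Intensities carry no read depth, and the number of arrays limits the precision.

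Accessions matched 30 of 48 features to symbols in RefSeq (GRCr8). Named were Fgf2, Gdnf, listed genes with a named feature, and for each member the 3 most and 3 least alike named features by Pearson r over 6 arrays. The members and lists were chosen with earlier results of these data known. The sources used here do not say whether equal replicate numbers mark paired samples.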

Additional observations from a re-analysis of the deposited data

How the results depend on the processing

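Of 17 alternatives that could move a difference of means, 15 moved Fgf2 and 15 moved Gdnf by less than the pooled SD between replicates. All 17 left both below 0. For both genes the larger moves came from the normexp correction and from the scan as a block. The pooled SD, 0.36 for Fgf2 and 0.65 for Gdnf, includes the split between scans within the hypoxia group and is therefore wide. A Gdnf value of -0.99 after 75th-percentile scaling, against -1.50, still fell within it. The difference relative to the other features spotted 10 times, also among the 17, was chosen after seeing the data. Without each replicate or array in turn, Fgf2 ranged from -2.23 to -1.71 and Gdnf from -2.04 to -1.14. The normexp background correction gave -0.97 for Fgf2 and -0.39 for Gdnf. It added an offset of 50 and started from the median signal and local background of each spot in place of the detrended signal, so the effects of these choices cannot be told apart. With the scan as a block, and within the scan that held both conditions, the values were -1.32 and -0.45.

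The count of changed features, 1107 in all, became 1536 with no replicate block. Deviations of same-numbered arrays from their group means correlated at -0.19, -0.06 and -0.09. In the hypoxia group these deviations also carry the split between scans, so they cannot decide whether equal numbers mark pairs. Whether samples were collected in pairs is not stated. The count was 2162 after 75th-percentile scaling, where 57.5% were higher against 25.4%, 578 with normexp and 179 with no detection filter. The methods' paired t-test gave 1 feature after Benjamini-Hochberg adjustment and 1251 without. Leaving out arrays gave 708 to 5410. The upper values, 5410 without replicate 1 and 5234 without hypoxia 1, left hypoxia arrays of 1 scan only, and the cause was not tested. The lower end came from leaving out a normoxia array: 708 without normoxia 1, 721 without normoxia 2 and 712 without normoxia 3. Fits without a single array had no replicate block, so they compare with 1536 and not with 1107. Signal over background limits Gdnf, whose corrected signal was below its background on hypoxia 2 and 3.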
